A study of Arabidopsis thaliana with 8 samples.

Results

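Inflorescences of the paps1-1 mutant of Arabidopsis thaliana were set against inflorescences of their wild type on 2-colour Agilent arrays. The members are the 4 arrays whose titles name inflorescences, of 8 in the series, and they were described across all genes measured. On each array 1 channel held RNA of paps1-1 plants and the other RNA of wild-type plants, so every array gave its own ratio of mutant over wild type. Both genotypes were in the Ler background, were 30 days old and grew on soil at 21 °C in long days. Main inflorescences without open flowers were taken 5 to 7 hours after the start of the light period, as 4 biological replicates per genotype. The mutant was labelled with Cy5 on replicates 1 and 2 and with Cy3 on replicates 3 and 4. The other 4 arrays compare whole seedlings of the same genotypes, grown on plates to 11 days (paps1-1) and 9 days (wild type), and enter here in the estimate of the spread and in a comparison of effects at the end. A locus stands for a gene, and 21443 of the 25665 loci on the array passed the filter on dim probes and were tested.

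PAPS1 encodes 1 of the nuclear poly(A) polymerases, the enzymes that extend the cleaved 3′ end of a messenger RNA with adenosines. The tail protects the transcript and helps its export and translation, and in Arabidopsis PAPS1 acts on part of the transcripts beside its relatives PAPS2 and PAPS4. The paps1-1 allele carries a missense change that leaves some activity, so the level of the PAPS1 transcript is no check of the genotype. Its plants are known for small leaves and enlarged floral organs. How the labelling of the RNA was primed is not given in the sources used here, and whether a ratio reflects transcript level or tail length as well was not tested.

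Every ratio below is the log2 ratio of mutant over wild type from a limma fit, with its moderated standard error (SE, n = 4 arrays), and is measured against the bulk of transcripts, which the normalization centres on 0. A gene was said to rise or fall where its Benjamini-Hochberg adjusted p over all loci was under 0.05. Levels are log2 channel intensities and compare the genotypes within 1 probe, not 1 gene with another. Where a gene is named with its levels, the 4 mutant and the 4 wild-type values did not overlap unless this is stated. Between 61.0% and 64.2% of the spots were well above background on the 4 arrays, and no spot was saturated. Ratios correlated across loci with r of 0.789 to 0.905 between arrays. Genes of floral identity such as AP1, AG and LFY were well above background in all 8 channels. Of 8 root markers tested 6 were so in all 4 mutant channels and 5 in all 4 wild-type channels, and the root hair genes EXPA7 and RHD6 in none. Of 15 seed and silique markers on the array only 10 passed the filter on dim probes and were tested. Of these 10, 5 were well above background in all 4 mutant channels and 4 in all 4 wild-type channels. PER1, OLEO1 and OLEO2 were so in no channel. The mutant and wild-type RNA came from mixed tissue, so fewer cells of a type and less RNA per cell cannot be told apart.

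The poly(A) polymerases themselves differed little between the genotypes. PAPS1 had levels of 11.09, 11.15, 11.17 and 11.22 in paps1-1, against 11.05, 11.09, 11.07 and 11.02 in wild type, and its ratio of 0.10 ± 0.05 did not pass (adjusted p = 0.117). The ranges of the 2 genotypes overlapped. PAPS2 stood at 0.03 ± 0.07 and PAPS4, listed as nPAP, at 0.11 ± 0.07, and neither passed. PAPS3, a polymerase expressed mainly in pollen, fell by 0.15 ± 0.04 (adjusted p = 0.00999), a call that ended without replicate 2 (adjusted p = 0.0552), with median centring and with a normexp offset of 0.

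The mutation went with small changes in many transcripts and large changes in few. Of the loci tested, 11509 were called (53.7%), 5610 of them higher (26.2%) and 5899 lower (27.5%). The median size of a called ratio was 0.305, and 85.4% of the calls lay within 1.5-fold. At least 2-fold higher were 260 loci (1.21%), against 103 at least 2-fold lower (0.48%), and beyond 4-fold the counts were 29 and 6. At 1.5-fold the counts were 942 (4.39%) and 743 (3.47%). The levels of all 4 mutant channels lay above all 4 wild-type channels for 4417 loci (20.6%), and below them for 4799 (22.4%). The ratio had the same sign on all 4 arrays in 91.6% of the calls.

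The direction held in both dye orientations for nearly all large changes. Of the 11509 calls, 264 (2.3%) had a mean of opposite sign in arrays 1 and 2 and in arrays 3 and 4, and none of these was among the 363 calls of at least 2-fold. Of all loci tested, 63 were well above background in all 4 mutant channels and in no wild-type channel and 41 were so in wild type alone. Of these 104 loci 93 are among the calls, where 53.7% of all loci are. Their choice by detection in 1 genotype favours such a call, so the count is no separate evidence of direction. With each array centred on its median in place of loess, 39.0% of 8840 calls were higher, against 48.7% with loess, so the balance of small rises and falls depended on the normalization.

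The highest ratios included those of genes linked to pathogen response and to nutrient transport. PCC1 (AT3G22231), a small pathogen-responsive membrane protein under clock control, had levels of 13.26, 13.37, 13 and 13.23 in the 4 mutant channels, against 8.14, 8.17, 8.80 and 9.67 in the 4 wild-type channels. The mutant levels lay within a narrow band, while those of wild type were highest on array 4 and lowest on arrays 1 and 2, and the genotypes did not overlap. The ratio of 4.52 ± 0.18 equals a 23.0-fold rise (adjusted p = 1.61e-07). The neighbouring loci behaved otherwise. AT3G22240 rose by 0.56 ± 0.09, with levels of 9.53, 10.17, 9.68 and 9.52 in paps1-1 and 9.11, 9.35, 9.03 and 9.17 in wild type, while AT3G22235 was not well above background in either genotype.

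DUR3 (AT5G45380), a high-affinity urea transporter, was raised by nearly the same amount on every array. Its levels were 9.38, 9.48, 9.18 and 9.69 in paps1-1, against 6.74, 6.86, 6.66 and 6.76 in wild type, a rise of 2.68 ± 0.06 on the log2 scale or 6.4-fold. LURP1 (AT2G14560), a gene of the defence against oomycetes, rose by 2.71 ± 0.18, with levels of 12.04, 11.27, 11.45 and 12.30 in the mutant and 8.83, 7.95, 9.13 and 10.28 in wild type. Its lowest mutant level still lay above the highest wild-type level. The acyl hydrolase gene PLA2A (AT2G26560) rose by 2.58 ± 0.12, the ankyrin repeat gene ANK (AT5G54610, also BDA1) by 2.63 ± 0.18 and the glucanase gene BG3 (AT3G57240) by 2.42 ± 0.16. ARD3 (AT2G26400), an acireductone dioxygenase of the methionine salvage cycle, had levels of 11.49, 11.08, 11.16 and 11.32 in paps1-1 and 8.99, 8.94, 8.87 and 8.63 in wild type and rose by 2.40 ± 0.10.

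The remaining genes among the 15 highest were PCR1 at 2.98 ± 0.34, MEE38 at 2.53 ± 0.09 and 6 loci given here by number alone. Of these, AT1G19960 was highest, with levels of 13.59, 13.66, 13.29 and 13.57 in paps1-1 and 10.47, 10.36, 10.42 and 10.73 in wild type. AT1G35710 stood at 2.75 ± 0.08, AT1G80130 at 2.58 ± 0.19, AT1G13470 at 2.56 ± 0.18, AT1G56120 at 2.49 ± 0.07 and AT3G04210 at 2.40 ± 0.10. Most of the 15 had larger ratios on both arrays 1 and 2, with the mutant in Cy5, than on arrays 3 and 4. These were PCC1, PCR1, LURP1, ANK, BG3, AT1G19960, AT1G13470, AT1G56120 and AT3G04210. For PCR1 the 4 ratios were 3.49, 4.28, 2.23 and 1.94, the widest range of the group. The same sign on all 4 arrays was a condition for the choice of these loci.

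**Figure D1:**
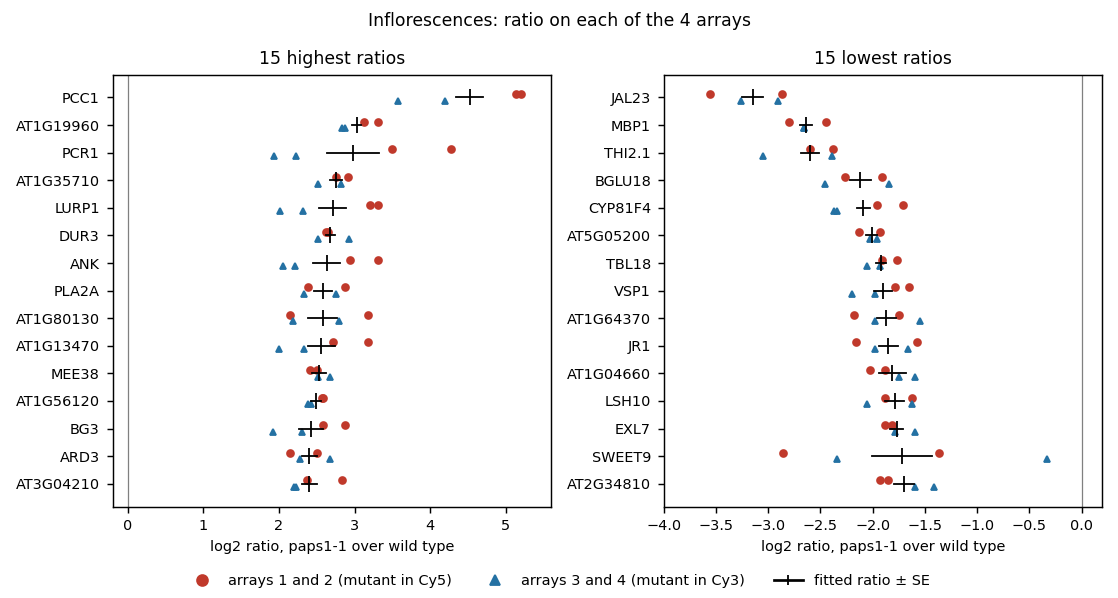
Log2 ratios of paps1-1 over wild type in inflorescences for the 15 highest and the 15 lowest loci, with 1 point per array (circles, mutant in Cy5; triangles, mutant in Cy3) and the fitted ratio ± SE as a cross. All points of the left panel lie right of 0 and all points of the right panel left of 0, and PCR1 and SWEET9 spread most within their panels.

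Genes of the salicylic acid response, which guards plants against pathogens that feed on living tissue, were the group with the largest rise. Of 29 pathogenesis-related and salicylic acid output genes on the array, 27 were tested, and 21 rose and 1 fell, where 26.2% and 27.5% of all loci did. At least 2-fold higher were 14 of them, where 1.21% of all loci were. The median log2 ratio of the list was 1.06, and on the single arrays 1.12, 1.4, 0.91 and 0.62, against a median over all loci of 0.001. The list was drawn up with earlier results of these samples known, so its direction is not independent evidence.

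Within that list the antifungal glucanase gene BGL2 (AT3G57260, PR2) had levels of 10.31, 10.56, 10.42 and 10.34 in paps1-1, against 7.85, 7.76, 8.55 and 9.38 in wild type. The mutant levels spanned a narrow range and the wild-type levels were high on arrays 3 and 4, without reaching those of the mutant. BGL2 rose by 2.02 ± 0.24 (adjusted p = 8.11e-05), and on array 4 its ratio was 0.96. PR5 (AT1G75040), a thaumatin-like protein, rose by 0.94 ± 0.13 with the same order of arrays, its ratios being 0.99, 1.44, 0.91 and 0.43. PR1 (AT2G14610), the usual marker of this response, had levels of 6.52, 6.88, 6.42 and 6.62 in paps1-1 and 6.08, 6.13, 6.13 and 6.41 in wild type, where it was well above background on 1 array. Its ratio of 0.42 ± 0.30 did not pass (adjusted p = 0.264), but did in a fit of the 4 inflorescence arrays alone (0.42, adjusted p = 0.0014) and with the log ratio of the scanner software (2.38, adjusted p = 0.00684). The membrane protein gene ACD6 (AT4G14400), which promotes salicylic acid signalling, rose by 2.16 ± 0.13. In the list as a whole the wild-type levels spread more over the arrays than the mutant levels, with median ranges of 0.37 in paps1-1 and 0.52 in wild type, against 0.20 and 0.19 over all loci.

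**Figure D2:**
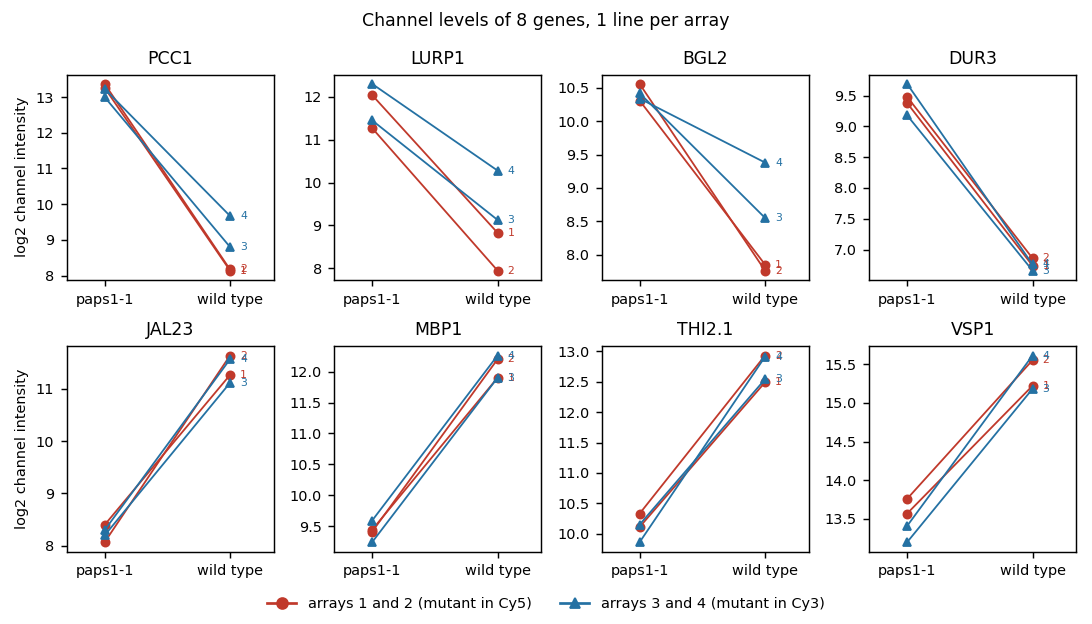
Log2 channel intensities of 8 genes in paps1-1 (left in each panel) and wild type (right), with 1 line per array numbered by replicate. In PCC1, LURP1 and BGL2 the wild-type points spread more than the mutant points, DUR3 has close points in both genotypes, and JAL23, MBP1, THI2.1 and VSP1 are lower in paps1-1 on every array.

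Synthesis and perception of salicylic acid rose less evenly. Of 34 genes of systemic acquired resistance and salicylic acid synthesis on the array, 33 were tested, and 16 rose and 3 fell. These were 48.5% and 9.09%, against 26.2% and 27.5% of all loci, and the median was 0.165. EDS16 (AT1G74710), isochorismate synthase, which commits chorismate to salicylic acid, rose by 0.55 ± 0.06. Its regulators CBP60G (AT5G26920) and SARD1 (AT1G73805) rose by 1.32 ± 0.11 and 0.85 ± 0.09. EPS1 (AT5G67160), an acyltransferase of a late step, fell by 0.53 ± 0.06. The genes that consume or modify salicylic acid rose most. DMR6 (AT5G24530), a salicylic acid hydroxylase, had levels of 12.07, 12.07, 12.19 and 12.11 in paps1-1, against 9.86, 10.05, 9.93 and 10.08 in wild type, a 4.37-fold rise with ranges far apart. The glucosyltransferase genes UGT76B1 (AT3G11340) and UGT74F2 (AT2G43820) rose by 1.41 ± 0.13 and 1.39 ± 0.09.

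For the pipecolate branch of systemic resistance the data were near the limit of detection. FMO1 (AT1G19250), which makes N-hydroxypipecolic acid, was well above background in all 4 mutant channels and in none of wild type, at least 1.48-fold higher (adjusted p = 0.0316), a call that ended without replicate 1, 2 or 4 (adjusted p = 0.0939, 0.128 and 0.0996). ALD1 (AT2G13810), the enzyme before it, was not well above background in either genotype. NIMIN1 (AT1G02450), a protein that binds the receptor NPR1, rose by 0.99 ± 0.09.

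Upstream of salicylic acid, the lipase-like pair EDS1 and PAD4 rose and their relative SAG101 fell. EDS1 (AT3G48090) had levels of 10.64, 10.58, 10.63 and 10.73 in paps1-1 and 10, 9.88, 9.95 and 9.96 in wild type and rose by 0.70 ± 0.05. PAD4 (AT3G52430) rose by 0.91 ± 0.09 and SAG101 (AT5G14930) fell by 0.30 ± 0.05, with ranges that did not overlap in either gene. Each of the 3 had the same sign on all 4 arrays.

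Intracellular immune receptors of the nucleotide-binding leucine-rich repeat (NLR) class detect pathogen effectors inside the cell, and helper NLRs relay their signal. The list of these genes also holds proteins that are not NLRs, such as TIR and homologs of RPW8. Of its 30 genes on the array 22 were tested, and 15 rose and none fell, where 26.2% and 27.5% of all loci did. The 2 members at least 2-fold higher were TIR and HR3, both outside the NLR class. At an unadjusted limma p under 0.05 the count of lower genes was 1. The median was 0.252 (0.14 with no filter on dim probes and 0.369 to 0.451 with an offset of 0, the log ratio of the scanner software or the deposited value table) and the ratios of the list had medians of 0.241, 0.37, 0.203 and 0.319 on the arrays. TIR (AT1G72930), a protein with a TIR domain alone, rose by 2.05 ± 0.08, with levels of 14.77, 14.94, 14.53 and 14.87 in paps1-1 and 12.49, 12.41, 12.85 and 13.16 in wild type. HR3 (AT3G50470), a homolog of the mildew resistance protein RPW8, rose by 1.16 ± 0.08 and the helper gene ADR1 (AT1G33560) by 0.93 ± 0.06. RLM3 (AT4G16990) and the bacterial effector sensor RPS2 (AT4G26090) rose by 0.86 ± 0.06 and 0.78 ± 0.07. RPS4 (AT5G45250) rose by 0.22 ± 0.05, with overlapping levels, and SNC1 (AT4G16890) stood at 0.03 ± 0.05 and was not called (adjusted p = 0.655).

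At the cell surface, receptors of microbial patterns and wall fragments rose for the most part. Of 39 wall-associated kinase and pattern receptor genes on the array 32 were tested, and 22 rose and 2 fell (68.8% and 6.25%, against 26.2% and 27.5% of all loci). The median was 0.246, and 0.379 to 0.394 with an offset of 0, the log ratio of the scanner software or the deposited value table. The pectin-binding kinase gene WAK1 (AT1G21250) rose by 1.67 ± 0.11, with ratios of 1.67, 1.88, 1.45 and 1.67, and WAK2 (AT1G21270) by 1.25 ± 0.07. SOBIR1 (AT2G31880), the adapter kinase of receptor-like proteins, had levels of 12.20, 12.44, 12.29 and 12.53 in paps1-1, against 10.59, 10.67, 10.78 and 11.26 in wild type, and rose by 1.54 ± 0.08. The flagellin receptor gene FLS2 (AT5G46330) rose by 0.66 ± 0.05 and the chitin-binding gene LYM2 (AT2G17120) by 0.79 ± 0.05, whereas the receptor gene for elongation factor Tu, EFR (AT5G20480), stood at 0.01 ± 0.05 and was not called (adjusted p = 0.868).

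The lowest ratios included those of lectins, storage proteins and enzymes, some known to respond to jasmonate or to act in glucosinolate breakdown. JAL23 (AT2G39330), a jacalin-related lectin, had levels of 8.4, 8.07, 8.20 and 8.30 in paps1-1, against 11.26, 11.63, 11.11 and 11.56 in wild type. The ranges lay more than 2 log2 units apart. Its fall of 8.87-fold (log2 ratio −3.15 ± 0.10, adjusted p = 5e-08) was the deepest on the array. The nearby gene JAL22 (AT2G39310) was close to background and not called, at −0.12 ± 0.10. MBP1 (AT1G52040), a myrosinase-binding protein, fell by 2.64 ± 0.06, with levels of 9.44, 9.41, 9.24 and 9.59 in paps1-1 and 11.90, 12.20, 11.90 and 12.26 in wild type. The adjacent gene MBP2 (AT1G52030) fell by 1.08 ± 0.06.

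Storage and antimicrobial genes of the jasmonate response followed. The thionin gene THI2.1 (AT1G72260) fell by 2.6 ± 0.09, with levels of 10.11, 10.33, 10.15 and 9.86 in paps1-1, against 12.49, 12.93, 12.54 and 12.91 in wild type. VSP1 (AT5G24780), a vegetative storage protein and acid phosphatase, fell by 1.90 ± 0.09, with ratios of −1.65, −1.79, −1.98 and −2.2. Its tandem copy VSP2 (AT5G24770) fell by 0.33 ± 0.09, with ratios of −0.40, −0.20, −0.35 and −0.37 and overlapping levels, and lost the call without replicate 1 or 2 (adjusted p = 0.084 and 0.055) and with the log ratio of the scanner software (adjusted p = 0.051). How far the probes tell VSP1 and VSP2 or the jacalin genes apart was not tested. Among the 15 lowest were also TBL18 (AT4G25360) of the trichome birefringence-like family at −1.92 ± 0.05, LSH10 (AT2G42610) at −1.79 ± 0.09 and the exordium-like gene EXL7 (AT2G35150) at −1.77 ± 0.06. The loci given by number alone were AT5G05200 at −2.01 ± 0.05, AT1G64370 at −1.87 ± 0.09, AT1G04660 at −1.81 ± 0.13 and AT2G34810 at −1.70 ± 0.10.

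Myrosinases are the enzymes that split glucosinolates when tissue is wounded, and specifier proteins steer the product. Of 22 genes for myrosinases, their binding and specifier proteins and jacalin lectins, 9 fell and 3 rose. These were 40.9% and 13.6%, against 27.5% and 26.2% of all loci. At least 2-fold lower were 4, where 0.48% of all loci were. The jasmonate-responsive lectin gene JR1 (AT3G16470) fell by 1.85 ± 0.09, with levels of 10.81, 10.53, 10.74 and 10.67 in paps1-1 and 12.39, 12.69, 12.40 and 12.66 in wild type. The myrosinase gene TGG1 (AT5G26000) fell by 0.42 ± 0.06 and the nitrile specifier gene NSP1 (AT3G16400) by 0.53 ± 0.09. In the other direction PBP1 (AT3G16420), which binds the root myrosinase PYK10, rose by 0.95 ± 0.07, with levels of 7.82, 7.65, 7.4 and 7.56 in paps1-1 and 7.17, 6.55, 6.35 and 6.55 in wild type. ESM1 (AT3G14210), a modifier of the breakdown product, rose by 0.61 ± 0.06. The list's median was −0.172.

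ER bodies are compartments of the endoplasmic reticulum that hold β-glucosidases. Of 15 ER body genes 4 rose and 5 fell (26.7% and 33.3%, near the 26.2% and 27.5% of all loci). BGLU18 (AT1G52400), the β-glucosidase of wound-induced ER bodies, fell by 2.12 ± 0.10, with levels of 13.09, 12.96, 13.20 and 12.81 in paps1-1, against 15, 15.22, 15.05 and 15.27 in wild type. The adjacent gene TSA1 (AT1G52410) fell by 1.24 ± 0.08 and the membrane protein genes MEB1 (AT4G27860) and MEB2 (AT5G24290) by 0.86 ± 0.05 and 0.72 ± 0.06. NAI2 (AT3G15950), which shapes the constitutive ER bodies, rose by 1.35 ± 0.10 and its regulator NAI1 (AT2G22770) by 0.52 ± 0.05. PYK10 (AT3G09260) was not called at 0.02 ± 0.23, with ratios of −0.98, 0.50, 0.46 and 0.11, and passed as higher without replicate 1 (0.44, adjusted p = 0.00724).

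Jasmonate synthesis runs from plastid lipids through lipoxygenase (LOX), allene oxide synthase and cyclase (AOC) and a peroxisomal reductase. Of 36 such genes on the array 35 were tested, and 12 fell and 7 rose (34.3% and 20%, near the 27.5% and 26.2% of all loci), with a median of −0.092. LOX2 (AT3G45140) fell by 1 ± 0.13, with levels of 14.91, 15.31, 14.89 and 15.06 in paps1-1, against 15.79, 16.26, 16.01 and 16.11 in wild type. AOC4 (AT1G13280) fell by 0.99 ± 0.05, with ratios of −1.06, −1, −0.95 and −0.96. In contrast LOX3 (AT1G17420) rose by 0.90 ± 0.09, with levels of 11.78, 12.03, 12.01 and 11.95 in paps1-1 and 10.87, 11.03, 11.04 and 11.24 in wild type, and the methyltransferase gene JMT (AT1G19640) rose by 0.71 ± 0.09. The reductase gene OPR3 (AT2G06050) stood at −0.15 ± 0.07 and did not pass (adjusted p = 0.0884). The transcription factor genes MYC2 (AT1G32640) and MYC3 (AT5G46760) fell by 0.35 ± 0.06 and 0.51 ± 0.07.

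Among the genes that jasmonate induces, several repressors fell with the storage proteins. Of 41 output genes on the array 39 were tested, and 14 fell and 4 rose (35.9% and 10.3%, against 27.5% and 26.2% of all loci). The median was −0.071. The repressor gene JAZ7 (AT2G34600) had levels of 6.74, 6.59, 6.63 and 6.85 in paps1-1, against 7.75, 7.77, 7.97 and 8.46 in wild type, and fell by 1.28 ± 0.15. JAZ5 (AT1G17380), JAZ6 (AT1G72450) and TIFY7 (AT1G70700, JAZ9) fell by 0.57 ± 0.10, 0.58 ± 0.06 and 0.57 ± 0.05, while JAZ3 (AT3G17860) rose by 0.52 ± 0.06. The hevein-like gene PR4 (AT3G04720), which responds to jasmonate and ethylene, rose by 1.1 ± 0.14, with ratios of 0.67, 1.74, 1.04 and 0.94.

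**Figure D3:**
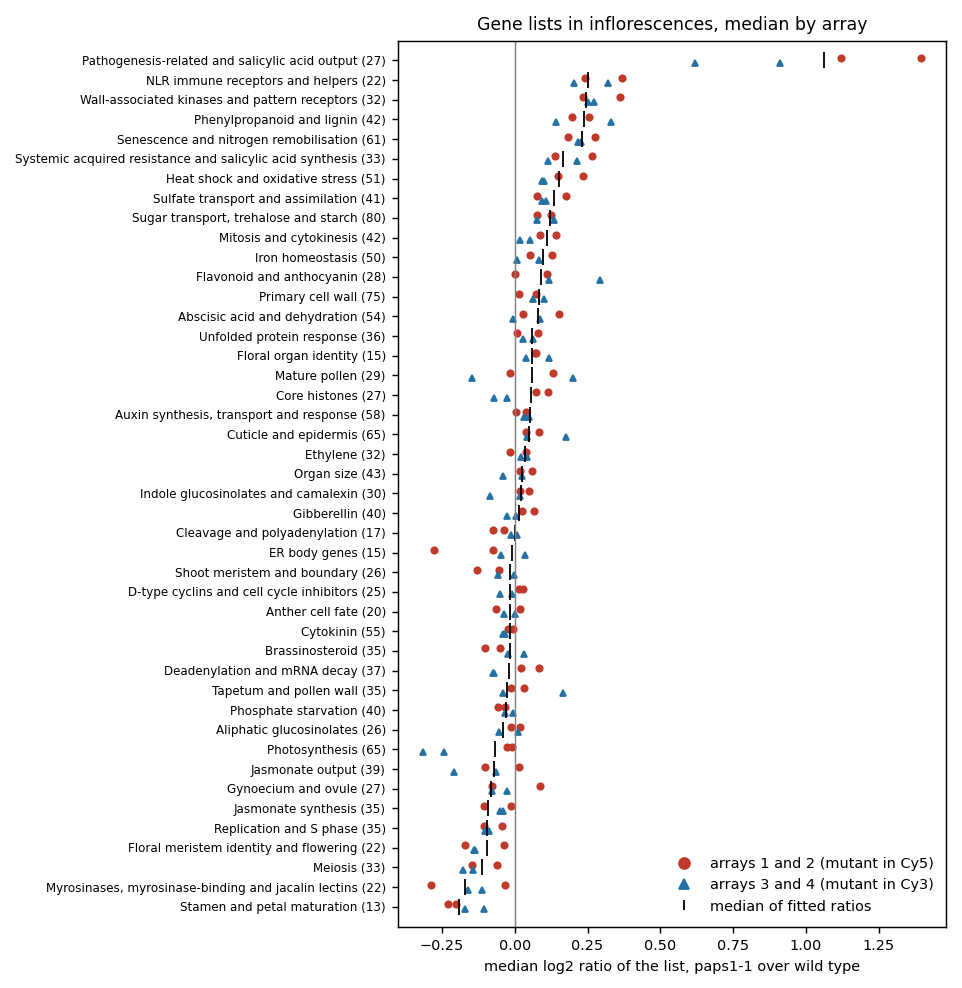
Median log2 ratio of paps1-1 over wild type for each gene list of at least 10 tested loci, with 1 point per array and a bar at the median of the fitted ratios; the number of tested loci stands in brackets. The salicylic acid output list lies right of all others on every array, and photosynthesis and core histones differ between the 2 dye orientations.

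Genes of defence metabolites rose and fell within each branch, in shares near those of all loci (26.2% and 27.5%). In the indole glucosinolate and camalexin list 8 of 30 tested genes rose and 9 fell (26.7% and 30%). CYP81F4 (AT4G37410), which hydroxylates indole glucosinolates, fell by 2.09 ± 0.06, with levels of 6.97, 7.28, 7.23 and 7.05 in paps1-1 and 8.68, 9.24, 9.57 and 9.42 in wild type. The methyltransferase gene IGMT5 (AT1G76790), the entry enzyme gene CYP79B3 (AT2G22330) and the regulator gene MYB34 (AT5G60890) fell by 0.87 ± 0.07, 0.75 ± 0.09 and 0.51 ± 0.08. The regulator gene MYB51 (AT1G18570) rose by 0.80 ± 0.08 and the transporter gene PEN3 (AT1G59870) by 0.91 ± 0.10. In the aliphatic branch 7 of 26 rose and 8 fell (26.9% and 30.8%). The transaminase gene BCAT4 (AT3G19710) stood at 0.94 ± 0.07 and the sulfotransferase gene SOT18 (AT1G74090) at −0.69 ± 0.06.

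Phenylpropanoid and lignin genes shifted up by small amounts. Of 43 on the array 42 were tested, and 26 rose and 5 fell (61.9% and 11.9%, against 26.2% and 27.5% of all loci). The median was 0.238, with array medians of 0.198, 0.256, 0.143 and 0.331. CCR2 (AT1G80820), a cinnamoyl-CoA reductase linked to defence, rose by 1.04 ± 0.07, with levels of 10.39, 10.19, 10.35 and 10.20 in paps1-1 and 9.33, 9.22, 9.42 and 9.01 in wild type. The ligase gene 4CL1 (AT1G51680) rose by 0.62 ± 0.06 and the ammonia-lyase gene PAL2 (AT3G53260) by 0.55 ± 0.06. The lignin regulator gene MYB63 (AT1G79180) fell by 0.38 ± 0.06. In the flavonoid list 12 of 28 tested genes rose and 4 fell (42.9% and 14.3%). GSTF12 (AT5G17220), which carries anthocyanin and proanthocyanidin, rose by 1.39 ± 0.09, while the anthocyanin regulator gene PAP1 (AT1G56650, MYB75) fell by 1.03 ± 0.11, with ratios of −0.95, −1.11, −1.14 and −0.94. Chalcone synthase, TT4 (AT5G13930), stood at 0.14 ± 0.10 and did not pass (adjusted p = 0.276).

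Genes that specify floral meristems and organs were seldom called at 1.5-fold or more, as was the case over all loci. In the list of floral meristem identity and flowering 1 was at least 1.5-fold higher and 1 lower. In the list of organ identity 1 was higher and 0 lower. Over all loci the shares were 4.39% and 3.47%. Of 23 genes of floral meristem identity and flowering on the array 22 were tested, and 7 rose and 8 fell. These were 31.8% and 36.4%, against 26.2% and 27.5% of all loci. FT (AT1G65480), the mobile flowering signal made in leaf veins, rose by 1.61 ± 0.11, with levels of 9.96, 10.34, 9.74 and 10.02 in paps1-1, against 8.49, 8.30, 8.38 and 8.44 in wild type. The ranges did not overlap. The integrator gene AGL20 (AT2G45660, SOC1) rose by 0.56 ± 0.06 and its partner AGL24 (AT4G24540) fell by 0.67 ± 0.05, with ratios of −0.70, −0.64, −0.57 and −0.75. The meristem identity gene AP1 (AT1G69120) stood at −0.04 ± 0.05 (adjusted p = 0.515). LFY (AT5G61850) stood at −0.15 ± 0.07 (adjusted p = 0.102) and passed as lower without replicate 1 (−0.22, adjusted p = 0.0357).

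Organ identity follows the ABC model, in which combinations of MADS-box genes set sepals, petals, stamens and carpels. Of 15 genes 5 rose and 3 fell (33.3% and 20%, against 26.2% and 27.5% of all loci). The cofactor genes SEP2 (AT3G02310) and SEP1 (AT5G15800) rose by 0.60 ± 0.05 and 0.55 ± 0.06, with SEP2 levels of 14.08, 14.10, 14.15 and 14.19 in paps1-1 and 13.55, 13.58, 13.51 and 13.48 in wild type. The corepressor gene SEU (AT1G43850) fell by 0.54 ± 0.09. The petal and stamen gene PI (AT5G20240) rose by 0.21 ± 0.07 and the stamen and carpel gene AG (AT4G18960) by 0.16 ± 0.05. PI lost its call without replicate 1, 2 or 3 (adjusted p = 0.0759, 0.136 and 0.0561) and AG without replicate 1 or 4 (adjusted p = 0.0956 and 0.137). Median centring, an offset of 0 and the log ratio of the scanner software ended both, and the deposited value table that of PI (adjusted p = 0.0761). AP3 (AT3G54340), at 0.06 ± 0.07, and AP2 (AT4G36920), at 0.04 ± 0.05, did not pass.

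In the shoot meristem the stem cell circuit showed rises and falls side by side. Of 27 meristem and boundary genes on the array 26 were tested, and 7 rose and 10 fell (26.9% and 38.5%, against 26.2% and 27.5% of all loci). WUS (AT2G17950), the organizer of stem cells, rose by 0.37 ± 0.05, with levels of 11.10, 11.09, 10.97 and 11.00 in paps1-1 and 10.66, 10.67, 10.75 and 10.59 in wild type, a call that ended with median centring (adjusted p = 0.237) and with the log ratio of the scanner software (adjusted p = 0.193). Its receptor kinase antagonist CLV1 (AT1G75820) rose by 0.52 ± 0.05 and the receptor-like gene CLV2 (AT1G65380) fell by 0.63 ± 0.04, with ratios of −0.57, −0.53, −0.70 and −0.72. The boundary genes CUC1 (AT3G15170) and CUC2 (AT5G53950) fell by 0.55 ± 0.05 and 0.28 ± 0.05. STM (AT1G62360), which keeps meristem cells undifferentiated, stood at 0.01 ± 0.08 (adjusted p = 0.936). Of the 5 tested shoot meristem markers CLV1 and WUS rose, KNAT2 fell and STM and KNAT1 did not pass, with a median of 0.009. Their summed linear intensity was 10400 to 11100 in paps1-1, against 9360 to 9690 in wild type.

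Of 28 gynoecium and ovule genes on the array 27 were tested, and 8 rose and 10 fell (29.6% and 37%, against 26.2% and 27.5% of all loci). The valve margin and style genes ALC (AT5G67110) and SPT (AT4G36930) rose by 0.56 ± 0.05 and 0.39 ± 0.05. SPT had ratios of 0.66, 0.67, 0.22 and 0.01, larger where Cy5 labelled the mutant. The transmitting tract genes HEC1 (AT5G67060) and HEC2 (AT3G50330) fell by 0.73 ± 0.17 and 0.46 ± 0.04, with HEC1 ratios of −1.16, −0.96, −0.22 and −0.59. The carpel gene CRC (AT1G69180) and the ovule gene STK (AT4G09960) were not called, at 0.09 ± 0.05 and 0.04 ± 0.07.

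Among 43 organ size genes 12 rose and 10 fell, near the shares of all loci. The growth-regulating factor genes went opposite ways. GRF8 (AT4G24150) rose by 0.63 ± 0.06, with levels of 8.79, 8.57, 8.71 and 8.70 in paps1-1 and 8.05, 8.01, 8.18 and 8.02 in wild type. GRF9 (AT2G45480) fell by 0.79 ± 0.06, with levels of 8.78, 8.51, 8.66 and 8.64 in paps1-1 and 9.45, 9.46, 9.48 and 9.36 in wild type. The promoters of organ growth ANT (AT4G37750), JAG (AT1G68480) and CYP78A5 (AT1G13710) stood at −0.09 ± 0.06, −0.04 ± 0.04 and 0.03 ± 0.06 and did not pass.

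The early anther genes SPL and EMS1 did not pass, while genes of the tapetum, the nurse layer that feeds pollen and builds its wall, rose and fell. Of 20 anther cell fate genes 3 rose and 5 fell (15% and 25%, against 26.2% and 27.5% of all loci). SPL (AT4G27330, also SPOROCYTELESS), which starts sporogenous tissue, and the receptor gene EMS1 (AT5G07280) stood at 0.06 ± 0.09 and 0.10 ± 0.05. TDF1 (AT3G28470), a tapetum regulator, rose by 1.04 ± 0.09, with levels of 9.06, 8.91, 8.82 and 8.59 in paps1-1, against 7.82, 7.96, 7.97 and 7.48 in wild type. The ranges did not overlap, and the call ended with the log ratio of the scanner software (1.27, adjusted p = 0.113). DYT1 (AT4G21330), which acts before TDF1, rose by 0.22 ± 0.05, and EMS1's ligand TPD1 (AT4G24972) by 0.25 ± 0.08, a call lost without replicate 2 or 4 (adjusted p = 0.112 and 0.0756) and with median centring (adjusted p = 0.282). The tapetum regulator AMS (AT2G16910) fell by 0.21 ± 0.07 (adjusted p = 0.0376). Its ratios were −0.08, −0.41, −0.37 and 0.03, and the levels overlapped. The AMS call ended without replicate 2 or 3 (adjusted p = 0.213 and 0.205) and under other settings, median centring among them. MS1 (AT5G22260) rose by 0.37 ± 0.09, with ratios of 0.35, 0.50, −0.02 and 0.64. The MS1 call ended with median centring and an offset of 0 (adjusted p = 0.236 and 0.168).

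Of 35 tapetum and pollen wall genes 12 rose and 10 fell (34.3% and 28.6%, against 26.2% and 27.5% of all loci). Of the enzymes of sporopollenin, the polymer of the pollen wall, LAP6 (AT1G02050) rose by 0.69 ± 0.07, MS2 (AT3G11980) by 0.39 ± 0.07 and CYP703A2 (AT1G01280) by 0.32 ± 0.05, whereas CYP704B1, ACOS5, LAP5 and DRL1 did not pass, at −0.13, −0.11, −0.15 and −0.06 (adjusted p = 0.181, 0.306, 0.205 and 0.604). QRT2 (AT3G07970), a pectin-degrading enzyme that frees pollen grains from their tetrads, rose by 0.69 ± 0.06, with levels of 8.12, 8.26, 7.89 and 8.03 in paps1-1 and 7.25, 7.49, 7.47 and 7.31 in wild type. The tapetum gene A7 (AT4G28395) rose by 0.37 ± 0.06 (adjusted p = 0.000837). It and those 4 enzymes were named after their values were seen. ATA20 (AT3G15400), also of the tapetum, had levels of 16.00, 16.07, 15.77 and 15.56 in paps1-1, against 17.04, 17.32, 17.06 and 16.91 in wild type, and fell by 1.23 ± 0.07. The oleosin-like pollen coat genes GRP16 (AT5G07540) and GRP17 (AT5G07530) fell by 0.84 ± 0.09 and 0.44 ± 0.13, GRP17 losing its call without replicate 1, 3 or 4 (adjusted p = 0.0595, 0.054 and 0.0791). The 13 tapetum markers, of which 8 rose and 1 fell, summed to intensities of 93400 to 116000 in paps1-1 and 75300 to 108000 in wild type. Median centring ended the calls of MS2, CYP703A2, DYT1 and GRP17 (adjusted p = 0.219, 0.25, 0.195 and 0.513). An offset of 0 ended those of MS2, DYT1 and GRP17 (adjusted p = 0.107, 0.255 and 0.377), and the log ratio of the scanner software those of CYP703A2 and GRP17 (adjusted p = 0.162 and 0.663). The deposited value table ended those of DYT1 and GRP17 (adjusted p = 0.0625 and 0.333).

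Meiotic genes were lower more often than higher. Of 36 on the array 33 were tested, and 13 fell and 2 rose (39.4% and 6.06%, against 27.5% and 26.2% of all loci), with a median of −0.114 and array medians of −0.06, −0.148, −0.143 and −0.178. The recombinase gene DMC1 (AT3G22880) fell by 0.58 ± 0.09, with levels of 10.97, 10.26, 10.63 and 10.63 in paps1-1 and 11.24, 10.85, 11.39 and 11.34 in wild type. The ranges overlapped, though each array gave a lower mutant level. The axis gene ASY3 (AT2G46980) fell by 0.42 ± 0.04 and the meiotic cyclin gene SDS (AT1G14750) by 0.33 ± 0.07, while the axis gene ASY1 (AT1G67370) stood at 0.08 ± 0.06 (adjusted p = 0.278).

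Of 29 tested mature pollen genes 10 rose and 7 fell (34.5% and 24.1%, against 26.2% and 27.5% of all loci). The pectin methylesterase genes of the pollen tube, PPME1 (AT1G69940) and VGD1 (AT2G47040), fell by 0.66 ± 0.05 and 0.57 ± 0.07, with PPME1 levels of 10.60, 10.56, 10.58 and 10.46 in paps1-1, against 11.26, 11.15, 11.13 and 11.31 in wild type. The receptor kinase gene ANX1 (AT3G04690) and the sperm fusion gene HAP2 (AT4G11720) rose by 0.36 ± 0.08 and 0.35 ± 0.06. Median centring ended the calls of VGD1 (adjusted p = 0.128) and ANX1 (adjusted p = 0.444), the log ratio of the scanner software that of VGD1 (adjusted p = 0.324) and an offset of 0 that of ANX1 (adjusted p = 0.0954). Of the 10 tested pollen markers 2 rose and 5 fell, with a median of −0.164. They summed to intensities of 44800 to 54400 in paps1-1, against 63500 to 73600 in wild type, a sum weighted towards bright probes such as that of VGD1, whereas the longer pollen list had a median of 0.058. How far the number or the stage of the anthers in the samples enters these values was not tested.

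Late stamen and petal genes, which act shortly before the flower opens, were called lower more often than higher. Of 14 on the array 13 were tested, and 7 fell and 2 rose (53.8% and 15.4%, against 27.5% and 26.2% of all loci). Their median was −0.192, and −0.012 with the strict filter on dim probes. That filter keeps only probes well above background in both genotypes on all 8 arrays, seedlings included. It leaves out MYB21, MYB24, TPS21, SWEET9 and BSMT1, which were dim in seedlings, so the 2 medians are not of the same genes. The jasmonate-dependent stamen regulators MYB21 (AT3G27810) and MYB24 (AT5G40350) fell by 0.69 ± 0.07 and 0.47 ± 0.07, with MYB21 levels of 12.33, 12.65, 12.29 and 12.34 in paps1-1 and 13.14, 13.04, 12.92 and 13.25 in wild type. The terpene synthase gene TPS21 (AT5G23960), which makes floral scent, fell by 0.46 ± 0.12, with ratios of −0.42, −0.30, −0.04 and −1.07. With median centring these 3 calls ended (adjusted p = 0.0517, 0.106 and 0.0948). SWEET9 (AT2G39060), the sucrose exporter of nectaries, had levels of 6.01, 7.20, 7.80 and 6.50 in paps1-1, against 8.87, 8.57, 8.13 and 8.83 in wild type. Its levels varied more over the mutant arrays than over those of wild type, the genotypes did not overlap, and the fall was 1.72 ± 0.29. BSMT1 (AT3G11480), a methyltransferase of volatile esters, and the expansin gene EXPA1 (AT1G69530) rose by 0.72 ± 0.07 and 0.82 ± 0.05, BSMT1 losing its call with the log ratio of the scanner software (adjusted p = 0.055). The 5 petal and open flower markers summed to 13500 to 15900 in paps1-1, against 14700 to 16400 in wild type.

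**Figure D4:**
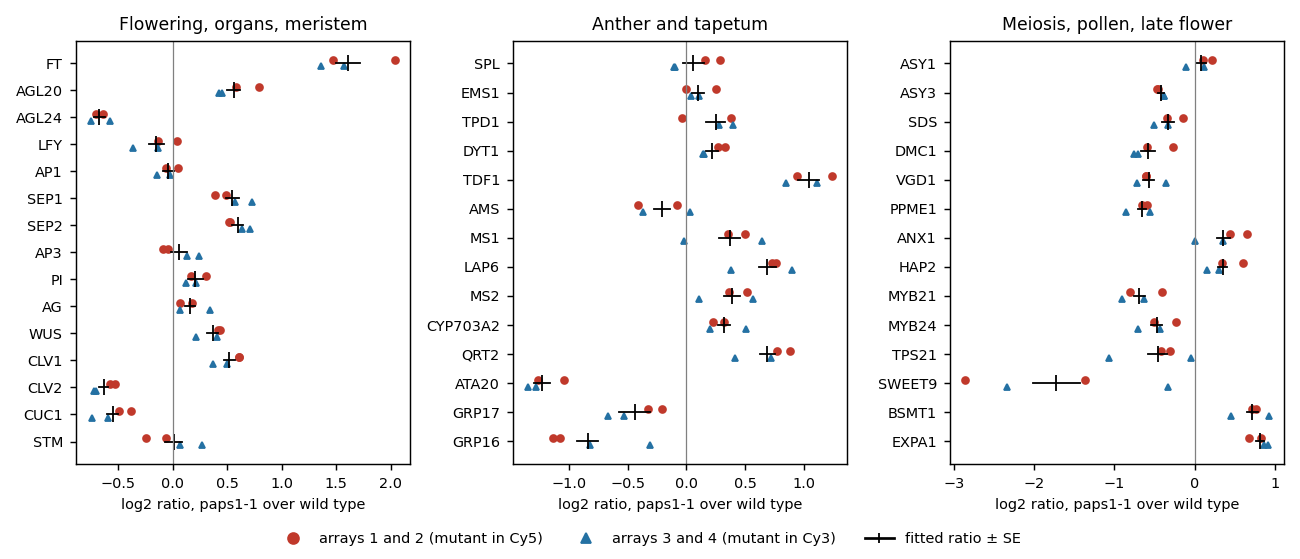
Log2 ratios of paps1-1 over wild type in inflorescences for genes of flowering and organ identity (left), anther and tapetum (middle) and meiosis, pollen and the late flower (right), with 1 point per array and the fitted ratio ± SE as a cross; the horizontal scales differ. FT and TDF1 lie well right of 0, ATA20, GRP16 and SWEET9 left of 0, and most organ identity genes within 0.75 of 0.

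Cell division genes rose and fell. Of 43 mitosis and cytokinesis genes on the array 42 were tested, and 19 rose and 9 fell (45.2% and 21.4%, against 26.2% and 27.5% of all loci), with a median of 0.11. SYP111 (AT1G08560), the syntaxin that fuses the cell plate, rose by 0.58 ± 0.05, with ratios of 0.60, 0.55, 0.65 and 0.52, and the cyclin gene CYCB1;3 (AT3G11520) by 0.49 ± 0.05. The Aurora kinase gene AUR2 (AT2G25880) rose by 0.45 ± 0.05, while HTR12 (AT1G01370), the histone of centromeres, fell by 0.61 ± 0.05. The cyclin gene CYCB1;1 (AT4G37490) stood at 0.00 ± 0.05 (adjusted p = 0.971). Of 35 replication genes 5 rose and 12 fell (14.3% and 34.3%). POLA2 (AT1G67630), a subunit of the primase complex, fell by 0.69 ± 0.05, with levels of 10.60, 10.37, 10.54 and 10.56 in paps1-1, against 11.23, 11.26, 11.23 and 11.12 in wild type, and E2F1 (AT5G22220), an S phase transcription factor, fell by 0.39 ± 0.04. MCM2 (AT1G44900), of the replicative helicase, stood at −0.13 ± 0.06 (adjusted p = 0.0979).

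Among 25 tested genes for D-type cyclins and cell cycle inhibitors 8 rose and 6 fell (32% and 24%, against 26.2% and 27.5% of all loci). The inhibitor gene SIM (AT5G04470), which drives endoreduplication, fell by 0.84 ± 0.06, with ratios of −0.83, −0.84, −0.81 and −0.87. The inhibitor gene KRP6 (AT3G19150) rose by 0.64 ± 0.05 and the cyclin gene CYCD3;1 (AT4G34160) by 0.37 ± 0.04. Of 27 tested core histone genes 8 rose and 12 fell (29.6% and 44.4%). Of the falls 6 were of at least 1.5-fold, where 3.47% of all loci were. HTB4 (AT5G59910), a histone H2B, fell by 0.98 ± 0.06, with levels of 16.19, 16.12, 15.73 and 15.76 in paps1-1 and 17.00, 16.94, 16.90 and 16.86 in wild type. HTB2 (AT5G22880), also an H2B, and HIS4 (AT2G28740), an H4, fell by 0.65 ± 0.05 and 0.61 ± 0.04, while GAMMA-H2AX (AT1G54690) rose by 0.48 ± 0.06. The median of the list was 0.114, 0.074, −0.028 and −0.072 on the 4 arrays, above 0 in 1 dye orientation and below it in the other. Histone genes are near-identical in sequence, and whether the probes tell them apart was not tested.

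Hormone pathways each held rises and falls, where 26.2% of all loci rose and 27.5% fell. Of 58 tested auxin genes 24 rose and 19 fell (41.4% and 32.8%). The efflux carrier gene PIN4 (AT2G01420) rose by 0.71 ± 0.05 and PIN7 (AT1G23080) fell by 0.47 ± 0.05. TAA1 (AT1G70560), the first enzyme of the main auxin route, rose by 0.51 ± 0.04, and DFL1 (AT5G54510, GH3.6), which conjugates auxin to amino acids, fell by 0.94 ± 0.06, with levels of 10.90, 10.80, 10.70 and 10.67 in paps1-1, against 11.66, 11.81, 11.72 and 11.67 in wild type.

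In the gibberellin list 10 of 40 tested genes rose and 10 fell (25% each, near the 26.2% and 27.5% of all loci). Of the falls 5 were of at least 1.5-fold, where 3.47% of all loci were. The growth repressors of the DELLA family differed among themselves. RGL1 (AT1G66350) had levels of 12.61, 12.64, 12.64 and 12.58 in paps1-1, against 13.96, 13.90, 13.86 and 13.69 in wild type, and fell by 1.24 ± 0.04. RGL3 (AT5G17490) fell by 0.80 ± 0.05, while RGA1 (AT2G01570) stood at 0.10 ± 0.05 and was not called (adjusted p = 0.115). The synthesis genes GA3OX1 (AT1G15550) and GA20OX1 (AT4G25420) fell by 0.81 ± 0.06 and 0.31 ± 0.04.

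Of 55 tested cytokinin genes 11 rose and 18 fell (20% and 32.7%, against 26.2% and 27.5% of all loci). The activating enzyme gene LOG5 (AT4G35190) stood at 0.72 ± 0.07 and the degrading oxidase gene CKX6 (AT3G63440) at −0.81 ± 0.06. In the brassinosteroid list 9 of 35 rose and 10 fell (25.7% and 28.6%, near the shares of all loci). The response gene BEE2 (AT4G36540) fell by 0.75 ± 0.05, and the receptor gene BRI1 (AT4G39400) was not called, at 0.02 ± 0.07. Of 54 tested abscisic acid genes 16 rose and 11 fell (29.6% and 20.4%). The stomatal kinase gene OST1 (AT4G33950) rose by 0.85 ± 0.05, with levels of 10.28, 10.44, 10.35 and 10.41 in paps1-1 and 9.62, 9.56, 9.55 and 9.36 in wild type, and the chloroplast cryoprotectant gene COR15B (AT2G42530) by 1.34 ± 0.13.

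Genes of senescence and nitrogen remobilisation were called higher more often than lower. Of 63 senescence and nitrogen remobilisation genes on the array 61 were tested, and 33 rose and 5 fell (54.1% and 8.2%, against 26.2% and 27.5% of all loci), with a median of 0.23 and array medians of 0.182, 0.275, 0.217 and 0.226. The amino acid transporter gene LHT1 (AT5G40780) had levels of 10.18, 11.18, 10.34 and 10.80 in paps1-1, against 8.39, 8.43, 8.59 and 9.30 in wild type, and rose by 1.95 ± 0.16. The phloem transporter gene AAP2 (AT5G09220) rose by 1.05 ± 0.07 and GSR 1 (AT5G37600), a cytosolic glutamine synthetase, by 0.87 ± 0.06. The nitrate transporter gene NRT1.5 (AT1G32450) fell by 0.48 ± 0.07.

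Of 80 sugar transport, trehalose and starch genes 36 rose and 11 fell (45% and 13.8%, against 26.2% and 27.5% of all loci), with a median of 0.122. GPT2 (AT1G61800), which brings glucose 6-phosphate into plastids, rose by 2.16 ± 0.20, with levels of 10.05, 10.64, 10.24 and 10.55 in paps1-1 and 8.44, 8.17, 8.27 and 7.96 in wild type. The sucrose exporter gene SWEET11 (AT3G48740) and the phloem loader SUC2 (AT1G22710) rose by 1.03 ± 0.05 and 0.46 ± 0.08. SAG29 (AT5G13170, SWEET15), on both lists, rose by 1.1 ± 0.10, and the β-amylase gene BAM5 (AT4G15210) fell by 0.77 ± 0.08.

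Metal and mineral nutrition changed in part. In the iron list 15 of 50 tested genes rose and 8 fell (30% and 16%, against 26.2% and 27.5% of all loci). FRU (AT2G28160, FIT), the regulator of iron uptake, rose by 0.83 ± 0.06, and the zinc and iron transporter gene IRT3 (AT1G60960) by 1.12 ± 0.06. NAS1 (AT5G04950), a nicotianamine synthase, fell by 1.18 ± 0.12, with levels of 6.21, 6.16, 6.33 and 6.25 in paps1-1, where 2 of 4 channels were well above background, and 7.63, 7.33, 7.10 and 7.6 in wild type. Of 41 tested sulfate genes 14 rose and 8 fell (34.1% and 19.5%). Among them were the sulfur deficiency gene ATSDI1 (AT5G48850) at 1.19 ± 0.21 and the serine acetyltransferase gene SERAT2;2 (AT3G13110) at −0.98 ± 0.05. Of 40 tested phosphate starvation genes 9 rose and 8 fell (22.5% and 20%). The galactolipid synthase gene MGDC (AT2G11810) fell by 0.83 ± 0.06 and the sensor gene SPX1 (AT5G20150) by 0.29 ± 0.07.

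In the heat shock and oxidative stress list 22 of 51 tested genes rose and 8 fell (43.1% and 15.7%, against 26.2% and 27.5% of all loci). The chaperone gene HSP70 (AT3G12580) rose by 1.32 ± 0.07 and the alternative oxidase gene AOX1A (AT3G22370) by 0.89 ± 0.10, while the chaperone regulator gene BAG6 (AT2G46240) fell by 0.91 ± 0.06. Of 65 cuticle and epidermis genes 26 rose and 15 fell (40% and 23.1%). The lipid transfer protein gene LTP2 (AT2G38530) rose by 0.87 ± 0.08 and SHN2 (AT5G11190), a regulator of cutin and wax in flowers, by 0.73 ± 0.08, with levels of 8.38, 8.41, 8.16 and 8.19 in paps1-1 and 7.47, 7.59, 7.42 and 7.76 in wild type.

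Photosynthesis genes differed between the dye orientations. Of 65 genes 14 rose and 27 fell (21.5% and 41.5%, against 26.2% and 27.5% of all loci). Their median was −0.025 and −0.009 where Cy5 labelled the mutant (arrays 1 and 2), and −0.314 and −0.243 where Cy3 did (arrays 3 and 4). CAB2 (AT1G29920), a light-harvesting protein, was called higher at 0.39 ± 0.05 while its ratios were 1.38, 1.48, −0.66 and −0.64, and PSBR (AT1G79040), of photosystem II, was called higher at 0.58 ± 0.07 with ratios of 1.36, 1.47, −0.26 and −0.24. Without the dye term neither was called (adjusted p = 0.493 and 0.175). PSAG (AT1G55670), of photosystem I, fell by 1.13 ± 0.08 with ratios of −1.04, −1.07, −1.12 and −1.27, and LHCB3 (AT5G54270) and LHCB6 (AT1G15820), of the light-harvesting antenna, fell by 0.99 ± 0.07 and 1.01 ± 0.13 in both orientations. CA2 (AT5G14740), a carbonic anhydrase, rose by 0.66 ± 0.09. The 8 leaf and photosynthesis markers, of which 4 rose and 2 fell, summed to intensities of 846000 to 1060000 in paps1-1 and 796000 to 1050000 in wild type.

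Genes for factors that act on messenger RNA ends were called to different extents. Of 18 cleavage and polyadenylation genes on the array 17 were tested, and 2 rose and 4 fell (11.8% and 23.5%, against 26.2% and 27.5% of all loci). FCA (AT4G16280), which promotes use of the proximal site in its own transcript and in antisense RNA of FLC, fell by 0.70 ± 0.07, with levels of 8.97, 8.95, 9.02 and 8.96 in paps1-1 and 9.56, 9.64, 9.64 and 9.88 in wild type. PCFS4 (AT4G04885), which acts with FCA, and CPSF73-I (AT1G61010), the endonuclease, fell by 0.48 ± 0.06 and 0.44 ± 0.04, and CLPS3 (AT3G04680) rose by 0.31 ± 0.05. Of 7 tested cytoplasmic poly(A)-binding protein genes 3 rose and 3 fell (42.9% each). The 3 that rose, not named here, did so by at most 0.273. PAB5 (AT1G71770) and PAB3 (AT1G22760), the members of reproductive tissue, fell by 0.88 ± 0.07 and 0.64 ± 0.07, with PAB5 levels of 11.69, 11.79, 11.89 and 11.65 in paps1-1, against 12.50, 12.94, 12.63 and 12.47 in wild type. PAB3 lost its call with the log ratio of the scanner software (adjusted p = 0.107). PAB8 (AT1G49760), of wide expression, fell by 0.47 ± 0.07. Of 37 tested deadenylation and decay genes 4 rose and 8 fell (10.8% and 21.6%), all by less than 1.5-fold.

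The effect of the mutation was compared with that in seedlings as the difference of the log2 ratios, inflorescence minus seedling. For this contrast the slide cannot be told apart from the tissue, and seedlings of the 2 genotypes differed in age by 2 days. The difference was called for 6905 of 21443 loci (32.2%), 3406 of them higher in inflorescences (15.9%) and 3499 lower (16.3%). With median centring 2941 were called. Among the loci above background in inflorescences, the 10 highest differences held DUR3, with a log2 ratio of 2.68 in inflorescences and 0.19 in seedlings, and RALFL11 (AT2G19030), of a family of small signalling peptides, at 2.33 in inflorescences and not well above background in seedlings. In inflorescences RALFL11 had levels of 9.69, 9.70, 9.63 and 9.18 in paps1-1, against 7.27, 7.17, 7.22 and 7.22 in wild type. HB21 (AT2G18550), a homeobox gene, stood at 2.11 in inflorescences and −0.09 in seedlings, and HIR2 (AT3G01290), a membrane protein of the hypersensitive response, at 2.24 in inflorescences and 0.09 in seedlings. PCC1 rose in both tissues, with 4.52 in inflorescences and 2.33 in seedlings (difference 2.19 ± 0.25, adjusted p = 0.000187). AT1G49700 and AT1G77530 stood at 1.77 and 1.65 in inflorescences, against −0.43 and −0.55 in seedlings. For HVA22B (AT5G62490), AT2G07719 and the seed aquaporin gene TIP3;1 (AT1G73190) the larger effect was a fall in seedlings. HVA22B and AT2G07719 stood at 0.74 and 0.16 in inflorescences, against −1.68 and −2.80 in seedlings. TIP3;1 was not well above background in wild-type inflorescences. Its ratio was 0.16 ± 0.08 in inflorescences (adjusted p = 0.107, not called) and −1.94 in seedlings. TIP3;1 was called higher in inflorescences with an offset of 0 (adjusted p = 0.0137), the log ratio of the scanner software (0.000574), the deposited value table (0.00971) and the 4 inflorescence arrays alone (0.0169).

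The 10 lowest differences were of 2 kinds. BGLU18, MBP1 and LOX2 fell in inflorescences and stood at 1.32, 0.51 and 2.08 in seedlings, JAL23 fell in inflorescences and was well above background on 1 seedling array in each genotype, and AT1G73325 stood at −1.56 in inflorescences and 1.47 in seedlings. BHLH100 (AT2G41240), an iron deficiency regulator, PAD3 (AT3G26830), of camalexin synthesis, TAT3 (AT2G24850), a jasmonate-responsive aminotransferase, TH8 (AT1G69880), a thioredoxin, and AT2G14247 had large seedling ratios of 4.72, 3.41, 2.92, 3.45 and 3.34. In inflorescences these 5 stood at −0.16, 0.31, −0.15, 0.54 and 0.28. Of these 5, BHLH100, PAD3 and TAT3 were not called in inflorescences with all 8 arrays. A fit of the 4 inflorescence arrays alone called BHLH100 (adjusted p = 0.0211) and PAD3 (adjusted p = 0.0184). TH8 lost its call without replicate 2 (adjusted p = 0.056) and AT2G14247 with median centring (adjusted p = 0.105).

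The lists below are set against 15.9% of all loci with a difference called higher in inflorescences and 16.3% lower, and against a share of higher calls that went to 63.5% with median centring. Of the 22 tested genes of the NLR list 18 had a difference called higher in inflorescences and none lower (0 at an unadjusted limma p under 0.05), with medians of 0.252 in inflorescences and −0.047 in seedlings. The jasmonate output list had 27 of 39 differences lower and 1 higher in inflorescences, with medians of −0.071 in inflorescences and 0.571 in seedlings. For myrosinases and lectins 14 of 22 were lower and 2 higher. Cuticle genes had 34 of 65 differences higher and 7 lower, with medians of 0.049 in inflorescences and −0.184 in seedlings. Photosynthesis genes had 39 of 65 higher and 2 lower, with medians of −0.069 in inflorescences (0.058 with median centring) and −0.422 in seedlings. The salicylic acid output list had similar medians, 1.06 in inflorescences and 1.01 in seedlings, with 6 of 27 differences higher and 9 lower. Over the 18340 loci measured in both tissues (16.1% higher, 15.1% lower) the NLR list had 17 of 21 higher and 0 lower, the jasmonate output list 1 of 29 higher and 19 lower, the myrosinase list 2 of 15 higher and 9 lower, and the cuticle list 33 of 61 higher and 7 lower.

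**Figure D5:**
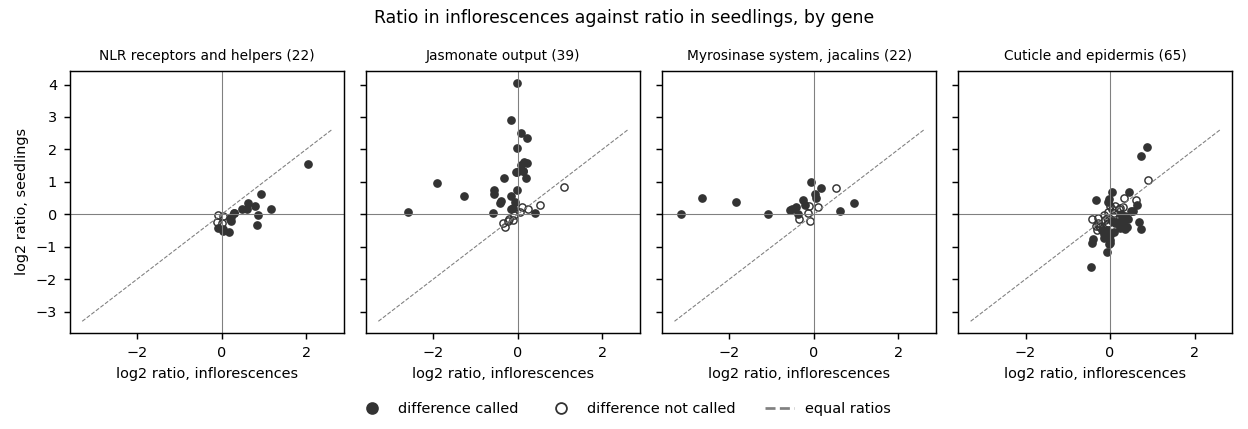
Log2 ratios of paps1-1 over wild type in inflorescences (horizontal) against seedlings (vertical) for 4 gene lists, with 1 point per gene; filled points mark a called difference, open points none, and the dashed line equal ratios. Genes of the NLR list lie mostly below the line, and jasmonate output genes mostly above it.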

How the data were processed

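Each of the 8 arrays is a 2-colour Agilent array read with Feature Extraction 10.7.3.1, per the file headers, and the deposited scanner files hold median signal and background intensity per channel and the scanner's log10 ratio (LogRatio). The plan named the mean signal, which the files used here do not hold, so the median signal was taken. The deposited value table gives the authors' log2 ratios, which follow mutant over wild type, and limma is named in the submitters' processing notes with no version given.

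From the intensities, background was corrected with normexp (offset 50), each array was normalized by loess, control spots were left out and the 140 spots with an outlier flag were dropped, with limma 3.58.1 (R 4.3.3). Probes stayed in when all 4 arrays of some genotype and tissue showed them well above background and 6 or more arrays had a value, and the brightest kept probe stood for a locus (399 loci had more than 1). Ratios were turned to mutant over wild type. All 8 arrays were fitted with terms for inflorescence, seedling and dye and moderated by eBayes, with adjustment by Benjamini and Hochberg over 21443 loci at 0.05. Channel levels were taken after loess and Aquantile. Loci were named from RefSeq's table (25449 of 25665 matched).

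Genes named are the 15 highest and 15 lowest ratios of the same sign on all 4 arrays, the 10 highest and 10 lowest differences between tissues, the neighbours of these in a family, the polymerases, and from each list called members with the largest ratios and key members. The members and lists were chosen with earlier results of these data known. EFS, ARAC1, ICL, TZP and NPY5 had been placed in a list by a wrong identity and were removed after values had been seen. The fit was tested on simulated data with known fold changes. Precision is limited by the number of arrays, with signal over background of 3.89 to 5.02 in the red and 4.93 to 5.51 in the green channel of the inflorescence arrays. Deviations of inflorescence and seedling arrays of the same replicate number correlated with r of 0.119, 0.292, 0.320 and 0.152. Arrays of the same number also share the dye orientation, and arrays of another number with the same orientation gave r of 0.079 to 0.373. The alternatives are listed with their effect at the end.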

Additional observations from a re-analysis of the deposited data

Results flagged for a closer look

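In 5 of the 240 genes named or plotted 1 array stood apart from the other 3 by Dixon's criterion, which chance meets in about 1 group in 20. WUS had a log2 ratio of 0.22 on replicate 3, against 0.41 to 0.44 on the other 3. CRC had a log2 ratio of 0.32 on replicate 1, against 0.00 to 0.05 on the other 3. DFL1 had a log2 ratio of −0.76 on replicate 1, against −1.02 to −0.99 on the other 3. For the phosphate sensor SPX1 the ratio was −0.25 on replicate 1, against −0.30 on the other 3 to 2 decimals. HSP70 had a log2 ratio of 1.49 on replicate 4, against 1.25 to 1.26 on the other 3.

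For 155 of the 240 genes the contrast of inflorescences and seedlings in the limma fit was called (Benjamini-Hochberg adjusted over all loci), 74 with the higher ratio in inflorescences and 81 with the lower. Over all loci 32.2% were called, and 20 of the 240 genes were named for the size of this difference, so the count partly restates the choice. The values below are inflorescence minus seedling on the log2 scale, and the slide cannot be told apart from the tissue.

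For 23 of the 155 genes the probe was not well above background on all 4 seedling arrays of either genotype, so the seedling ratio has little or no measured signal and the value says little beyond the inflorescence ratio. These were RALFL11 (2.38), FT (1.55), TDF1 (1.15), BSMT1 (0.63), GRF8 (0.53), MS1 (0.41), MS2 (0.38) and HAP2 (0.26). They also included CYP703A2 (0.25), DYT1 (0.24), JAG (−0.18), PAPS3 (−0.21), TPS21 (−0.54), VGD1 (−0.54), MYB24 (−0.56) and PAB3 (−0.62). The last of them were PPME1 (−0.66), MYB21 (−0.74), GRP16 (−0.89), MBP2 (−1.09), SWEET9 (−1.78), THI2.1 (−2.67) and JAL23 (−3.14). The other 132 follow.

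Among the loci with the highest and lowest ratios, the ratio was higher in inflorescences for DUR3 (2.49), PCC1 (2.19), AT3G04210 (1.61), AT1G56120 (1.54), ARD3 (1.39), AT1G35710 (1.38), AT1G19960 (1.13) and PLA2A (0.75). It was also higher for BG3 (0.71). Among the loci with the highest and lowest ratios, the ratio was lower in inflorescences for EXL7 (−0.78), TBL18 (−0.96), AT5G05200 (−1.78), AT1G64370 (−1.82), LSH10 (−1.85), CYP81F4 (−2.01), AT1G04660 (−2.18) and JR1 (−2.21). It was also lower for AT2G34810 (−2.39), VSP1 (−2.87), MBP1 (−3.15) and BGLU18 (−3.44). Among their neighbours, the ratio was lower in inflorescences for VSP2 (−1.44) and TSA1 (−2.22). Of the loci with the largest differences, the ratio was higher in inflorescences for AT2G07719 (2.96), HVA22B (2.42), AT1G49700 (2.2), AT1G77530 (2.2), HB21 (2.2), HIR2 (2.15) and TIP3;1 (2.1). Among the loci with the largest differences, the ratio was lower in inflorescences for TH8 (−2.90), AT1G73325 (−3.03), AT2G14247 (−3.06), TAT3 (−3.07) and PAD3 (−3.10).

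Among salicylic acid genes, the ratio was higher in inflorescences for ACD6 (1.68), DMR6 (1.46), UGT74F2 (1.05) and EDS1 (0.26). Of salicylic acid genes, the ratio was lower in inflorescences for EDS16 (−0.27), EPS1 (−0.51), ALD1 (−0.58), FMO1 (−1.48) and PR1 (−1.49). ALD1 was not well above background in inflorescences of either genotype, so its value says little beyond the seedling ratio. In wild-type inflorescences FMO1 was well above background on no array and PR1 on 1. Among immune receptors, the ratio was higher in inflorescences for HR3 (1.01), WAK2 (0.96), RLM3 (0.89), FLS2 (0.75), SOBIR1 (0.70), RPS2 (0.53), TIR (0.52) and SNC1 (0.48). It was also higher for ADR1 (0.29) and RPS4 (0.29). Among immune receptors, the ratio was lower in inflorescences for LYM2 (−0.29) and WAK1 (−0.80). Of myrosinase and ER body genes, the ratio was higher in inflorescences for NAI2 (0.82), PBP1 (0.60) and ESM1 (0.51). Among myrosinase and ER body genes, the ratio was lower in inflorescences for TGG1 (−0.65), NSP1 (−0.68), MEB2 (−1.08) and MEB1 (−1.16). Of jasmonate genes, the ratio was lower in inflorescences for AOC4 (−0.19), MYC2 (−0.28), JAZ6 (−0.61), JAZ5 (−1.20), OPR3 (−1.24), TIFY7 (−1.31), JAZ7 (−1.85) and LOX2 (−3.08). Among glucosinolate genes, the ratio was higher in inflorescences for PEN3 (1.07) and BCAT4 (0.68). Of glucosinolate genes, the ratio was lower in inflorescences for MYB34 (−0.75), IGMT5 (−1.26) and CYP79B3 (−1.43). Among phenylpropanoid and flavonoid genes, the ratio was higher in inflorescences for PAL2 (0.37), CCR2 (0.32) and 4CL1 (0.26). Of phenylpropanoid and flavonoid genes, the ratio was lower in inflorescences for MYB63 (−0.55), TT4 (−0.86) and PAP1 (−1.77).

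Among flowering, floral identity, meristem and gynoecium genes, the ratio was higher in inflorescences for AGL20 (0.99), WUS (0.60), SEP1 (0.54), SEP2 (0.47) and AG (0.28). Of flowering, floral identity, meristem and gynoecium genes, the ratio was lower in inflorescences for CUC2 (−0.35), GRF9 (−0.42), STM (−0.47), AGL24 (−0.48), CYP78A5 (−0.48), CUC1 (−0.50), HEC2 (−0.71) and HEC1 (−1.10). Among anther, pollen and late flower genes, the ratio was higher in inflorescences for EXPA1 (1.29), TPD1 (1.04), LAP6 (0.82) and QRT2 (0.31). Of anther, pollen and late flower genes, the ratio was lower in inflorescences for ATA20 (−0.81). Among cell cycle and histone genes, the ratio was higher in inflorescences for SYP111 (0.28) and CYCD3;1 (0.24). Of cell cycle and histone genes, the ratio was lower in inflorescences for POLA2 (−0.23) and GAMMA-H2AX (−0.31).

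Among hormone genes, the ratio was higher in inflorescences for PIN4 (0.97), BEE2 (0.43), RGA1 (0.42), TAA1 (0.33), LOG5 (0.33), BRI1 (0.30) and OST1 (0.28). Of hormone genes, the ratio was lower in inflorescences for RGL3 (−0.36), RGL1 (−0.42), DFL1 (−0.44) and GA3OX1 (−1.25). Among nutrient and sugar genes, the ratio was higher in inflorescences for LHT1 (1.54), FRU (0.90) and SWEET11 (0.42). Of nutrient and sugar genes, the ratio was lower in inflorescences for SERAT2;2 (−0.42), SAG29 (−0.72), ATSDI1 (−1.05), BAM5 (−1.16), MGDC (−1.47), NAS1 (−1.63) and BHLH100 (−4.88). Among stress, cuticle and photosynthesis genes, the ratio was higher in inflorescences for SHN2 (1.19), AOX1A (0.91), CA2 (0.63) and CAB2 (0.43). Of stress, cuticle and photosynthesis genes, the ratio was lower in inflorescences for LTP2 (−1.22). Among genes of RNA 3′ ends, the ratio was higher in inflorescences for CLPS3 (0.26). Of genes of RNA 3′ ends, the ratio was lower in inflorescences for PAB5 (−1.29).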

How the results depend on the processing

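Under the other settings 9288 to 12635 loci were called in inflorescences except with median centring in place of loess, where 8840 were (3449 higher and 5391 lower, 39.0% higher against 48.7%), and 0 calls changed direction under any of them. Median centring also gave 2941 tissue differences, 1869 higher and 1072 lower in inflorescences (63.5% higher against 49.3%), with the median of all loci at −0.031. With the replicate block in place of the dye term 11053 loci and 6147 differences were called, and it changed no call of a gene named. Leaving out 1 inflorescence replicate gave 9288 to 9871 calls and 5401 to 5620 differences, and leaving out 1 seedling replicate 10960 to 12635 calls and 4928 to 7800 differences. The fit of the 4 inflorescence arrays alone called 12593 loci, the fit without a dye term 10025, the scanner's LogRatio 11002, while 10677 were called from the deposited value table and 10422 with an offset of 0. With no filter on dim probes 11509 of 25665 were called, and with the strict filter 10130 of 17610.

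Of the 47 list medians 32 kept their sign under every setting, and 15 with medians of at most 0.069 in size changed it in 25 of 658 values, among them photosynthesis (0.058 with median centring) and mature pollen (−0.216 with the strict filter). In all 57 of the 658 values moved beyond the spread of the arrays, and those of 12 lists followed most closely are as follows. The NLR median was 0.387 with an offset of 0, 0.451 with LogRatio, 0.369 with the value table and 0.14 with no filter. Under the first 3 of these settings the wall-associated kinase list had 0.394, 0.379 and 0.383, the myrosinase list −0.316, −0.395 and −0.325 (−0.302 with the strict filter), and the stamen and petal list −0.274, −0.27 and −0.277 (−0.012 with the strict filter). The meiosis median was −0.216 with LogRatio and −0.167 with the value table, the systemic acquired resistance median 0.239 with an offset of 0 and 0.094 with the strict filter, and the mitosis median 0.048 with median centring. The causes were not tested. Of the loci tested, 1085 were not above background in inflorescences. The dye orientations are given side by side in the plots by array.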

Other observations

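The array also carries 11242 probes without a locus in their name, which entered no comparison above. In a fit of all kept probes, 1454 of 8812 probes named by a chromosome position passed the filter, and 36.5% of them were called, 8 higher and 0 lower by 2-fold or more. Of 2430 probes with other names 956 passed, and 37.1% were called, 11 higher and 0 lower by 2-fold or more. Of the 21863 probes with a locus 53.2% were called. The probes without a locus were dimmer, with median log2 intensities of 6.81 for those named by position and 6.91 for the other names, against 10.06 for probes with a locus.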
